A study of Mus musculus with 8 samples.

Results

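Histone chaperones are the proteins that carry histones and hand them to DNA, and 10 genes of this group were followed here through early reprogramming of mouse embryonic fibroblasts (MEFs). They were chosen by name: the subunits of chromatin assembly factor 1 (CAF-1), which are *Chaf1a*, *Chaf1b* and *Rbbp4*, and the further chaperones *Asf1a*, *Asf1b*, *Nasp*, *Hira*, *Daxx*, *Atrx* and *Hjurp*. All 10 were present among the 18990 genes of the expression table, and all 10 passed the filter on low values. Primary wild-type MEFs of the strain C57/BL6 (BL6 in the labels) had been transduced with lentiviruses carrying rtTA and tet-STEMCCA, a doxycycline-inducible cassette for *Oct4*, *Sox2*, *Klf4* and *c-Myc* (OSKM). They were then transfected with 40 nM of pooled siRNAs against *Ncor1* or against *Oct4* (gene symbol *Pou5f1*), and doxycycline at 2 µg/mL was given afterwards in a medium that also held chiron, an inhibitor of Alk5, ascorbic acid and LIF. RNA was collected at reprogramming day 3 and day 6, which gave 4 groups (*siNcor1* day 3, *siOct4* day 3, *siNcor1* day 6 and *siOct4* day 6) of 2 biological replicates each. All 4 groups share the cassette, the medium and an siRNA transfection, the age of the embryos is not given in the sources used here, and libraries of a non-targeting siRNA were not analysed here. Every comparison is therefore between the siRNAs or between the days, and the comparisons share libraries with each other.

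CAF-1 travels with the replication fork and deposits new histones H3 and H4 behind it. CHAF1A and CHAF1B are its large and middle subunits, and RBBP4 is a histone-binding subunit that CAF-1 shares with several other chromatin complexes. ASF1A, ASF1B and NASP bind H3 and H4 before deposition and pass them on, the HIRA complex and the DAXX and ATRX pair place the replacement histone H3.3 outside replication, and HJURP brings the centromeric histone CENP-A to the centromere. In MEF reprogramming CAF-1 is known as a barrier, since lowering its large or middle subunit eases the formation of iPS cells.

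The values are log2-cpm, the base 2 logarithm of CPM (the reads of a gene scaled to a common library size) with a small constant added. Libraries held between 7735742 and 16445192 reads on genes, so that 3 reads in a library stand for 0.174 to 0.380 CPM, and the least covered value of a member was 85 reads of *Asf1a*. A single non-coding gene, *Gm26917*, took 15.5% to 29.1% of these reads. In the check of the targeted genes, *Ncor1* stood at 135 and 146 CPM in the *siNcor1* libraries of day 3 against 226 and 245 CPM in those labelled *siOct4*, a log2 difference of 0.74 (SE 0.12, limma adjusted p = 0.0139). This call was lost with any of the 4 day 3 libraries left out (adjusted p = 0.0617 to 0.132). At day 6 the log2 difference of *Ncor1* was −0.04 (adjusted p = 0.815). *Pou5f1* showed no fall under the label *siOct4*, with a log2 difference of −0.08 at day 3 (adjusted p = 0.941) and of 1.78 at day 6 (adjusted p = 1.1e-04). Its RNA before day 3 was not measured in these libraries, so an earlier, passing knockdown is not covered by this check. RNA of the cassette and of the cells' own gene cannot be told apart in these values, and the groups are called by their labels throughout. All 10 fibroblast markers examined were above 1 CPM, while *Ptprc*, *Myod1*, *Myog* and *Rbfox3*, which mark blood cells, muscle cells and neurons, were not among the genes of the table. Other markers of these cell types did average 1 CPM or more, namely *Cd68*, *Csf1r*, *Des*, *Tubb3* and *Sox10*. So did the endothelial marker *Tek* and the keratinocyte marker *Krt14*, so other cell types are not shown to be absent.

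The annotation (GENCODE M21 on mm10) places *Chaf1a* on chromosome 17 at 56040439 to 56072289 on the plus strand and *Chaf1b* on chromosome 16 at 93883901 to 93906115 on the plus strand. It places *Asf1b* on chromosome 8 at 83955507 to 83970197 on the plus strand, *Nasp* on chromosome 4 at 116601052 to 116627941 on the minus strand and *Atrx* on chromosome X at 105797615 to 105929403 on the minus strand. These 5 genes carry the day 6 differences below, and their promoter windows are printed for that reason. Each window runs from 250 bases before to 50 bases after the transcription start in RefSeq (build GRCm38.p6, which has the mm10 coordinates), and all 10 members had a window in this set. Capitals mark 2 short motifs that were searched on both strands, a match on the other strand being printed as its reverse complement. The first is CCAAT, the box bound by NF-Y, and the other is TTTGAA, the core of the cell cycle genes homology region (CHR). The windows are *Chaf1a* at chr17:56040166-56040465, *Chaf1b* at chr16:93883651-93883950, *Asf1b* at chr8:83955444-83955743, *Nasp* at chr4:116627902-116628201 (minus strand) and *Atrx* at chrX:105929323-105929622 (minus strand), each written 5′ to 3′ in the direction of the gene.
Chaf1a: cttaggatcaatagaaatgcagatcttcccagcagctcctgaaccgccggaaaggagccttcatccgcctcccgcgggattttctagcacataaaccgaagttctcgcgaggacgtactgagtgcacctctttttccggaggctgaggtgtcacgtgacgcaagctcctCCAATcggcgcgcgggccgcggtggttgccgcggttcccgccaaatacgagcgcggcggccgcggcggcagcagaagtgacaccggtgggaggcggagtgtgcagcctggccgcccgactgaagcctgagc
Chaf1b: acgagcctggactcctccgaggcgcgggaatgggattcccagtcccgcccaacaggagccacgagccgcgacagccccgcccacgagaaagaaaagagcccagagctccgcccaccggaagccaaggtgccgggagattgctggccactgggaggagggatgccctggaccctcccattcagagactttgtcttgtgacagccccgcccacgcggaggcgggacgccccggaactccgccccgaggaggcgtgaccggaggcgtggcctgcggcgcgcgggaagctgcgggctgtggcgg
Asf1b: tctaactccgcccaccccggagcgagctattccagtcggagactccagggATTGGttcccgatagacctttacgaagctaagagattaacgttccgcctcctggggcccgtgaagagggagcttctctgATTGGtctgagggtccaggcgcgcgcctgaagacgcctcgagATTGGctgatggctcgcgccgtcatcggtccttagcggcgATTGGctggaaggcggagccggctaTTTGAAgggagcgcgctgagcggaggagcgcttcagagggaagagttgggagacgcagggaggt
Nasp: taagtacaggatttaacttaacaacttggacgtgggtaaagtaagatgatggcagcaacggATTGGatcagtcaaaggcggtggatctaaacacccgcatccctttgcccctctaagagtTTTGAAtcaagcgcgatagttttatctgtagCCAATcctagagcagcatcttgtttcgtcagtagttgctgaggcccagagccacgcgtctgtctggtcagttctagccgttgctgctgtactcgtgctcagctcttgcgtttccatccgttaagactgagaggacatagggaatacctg
Atrx: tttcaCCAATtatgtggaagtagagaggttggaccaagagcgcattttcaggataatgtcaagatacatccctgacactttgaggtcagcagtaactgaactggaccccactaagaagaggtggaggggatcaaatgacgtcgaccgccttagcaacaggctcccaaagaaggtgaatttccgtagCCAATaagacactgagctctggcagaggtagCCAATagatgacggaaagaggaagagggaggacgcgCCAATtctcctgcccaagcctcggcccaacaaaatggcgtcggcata

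CCAAT occurred 4 times in the *Asf1b* window, 4 times in that of *Atrx*, 2 times in that of *Nasp* and 1 time in that of *Chaf1a*. It also occurred 1 time each in windows of *Rbbp4*, *Asf1a*, *Daxx* and *Hjurp*, which were not called at day 6, while *Chaf1b* and *Hira* had none. Among all 32851 windows in the set, 37.4% held at least 1 CCAAT and 1.06% held at least 4. TTTGAA was found in the windows of *Asf1b* and *Nasp*, and also in that of *Hjurp*, against 17.9% of all windows. These 3 windows held both motifs, as did 6.95% of all windows. The *Asf1b* window held its TTTGAA close to the start, with the match beginning 14 bases before it, and in *Nasp* the match began 130 bases before the start. *Chaf1b* held neither motif. The letters TTTCCCGC, TTTGGCGC, TTTCGCGC and TTTGCCGC, which are forms of the site bound by E2F factors, were in none of the members' windows on either strand, and 2.27% of all windows held one of them or more. Only these exact letters were searched, so other forms of the E2F site in these windows are not covered. The matches describe the letters of a window and not binding. The RefSeq start of *Asf1b* lies 187 bases from its GENCODE start, and the other 4 starts lie within 31 bases.

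The comparison of the siRNAs at day 3 asked whether the chaperones differed early in reprogramming. None of the 10 members passed the test in either direction at day 3 (limma, adjusted p under 0.05), where 0.375% of the 13866 tested genes were called higher and 0.692% were called lower in the libraries labelled *siOct4*. Log2 differences of the members, *siOct4* minus *siNcor1*, ran from −0.27 for *Atrx* to 0.18 for *Hira*, with a median of −0.13 against −0.02 over all tested genes. Both *Atrx* values of the libraries labelled *siOct4* (186 and 181 CPM) lay below both *siNcor1* values (224 and 220 CPM), with a 95% interval of the log2 difference from −0.58 to 0.04 (limma adjusted p = 0.570). For *Asf1b* the interval ran from −0.58 to 0.24.

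**Figure D1:**
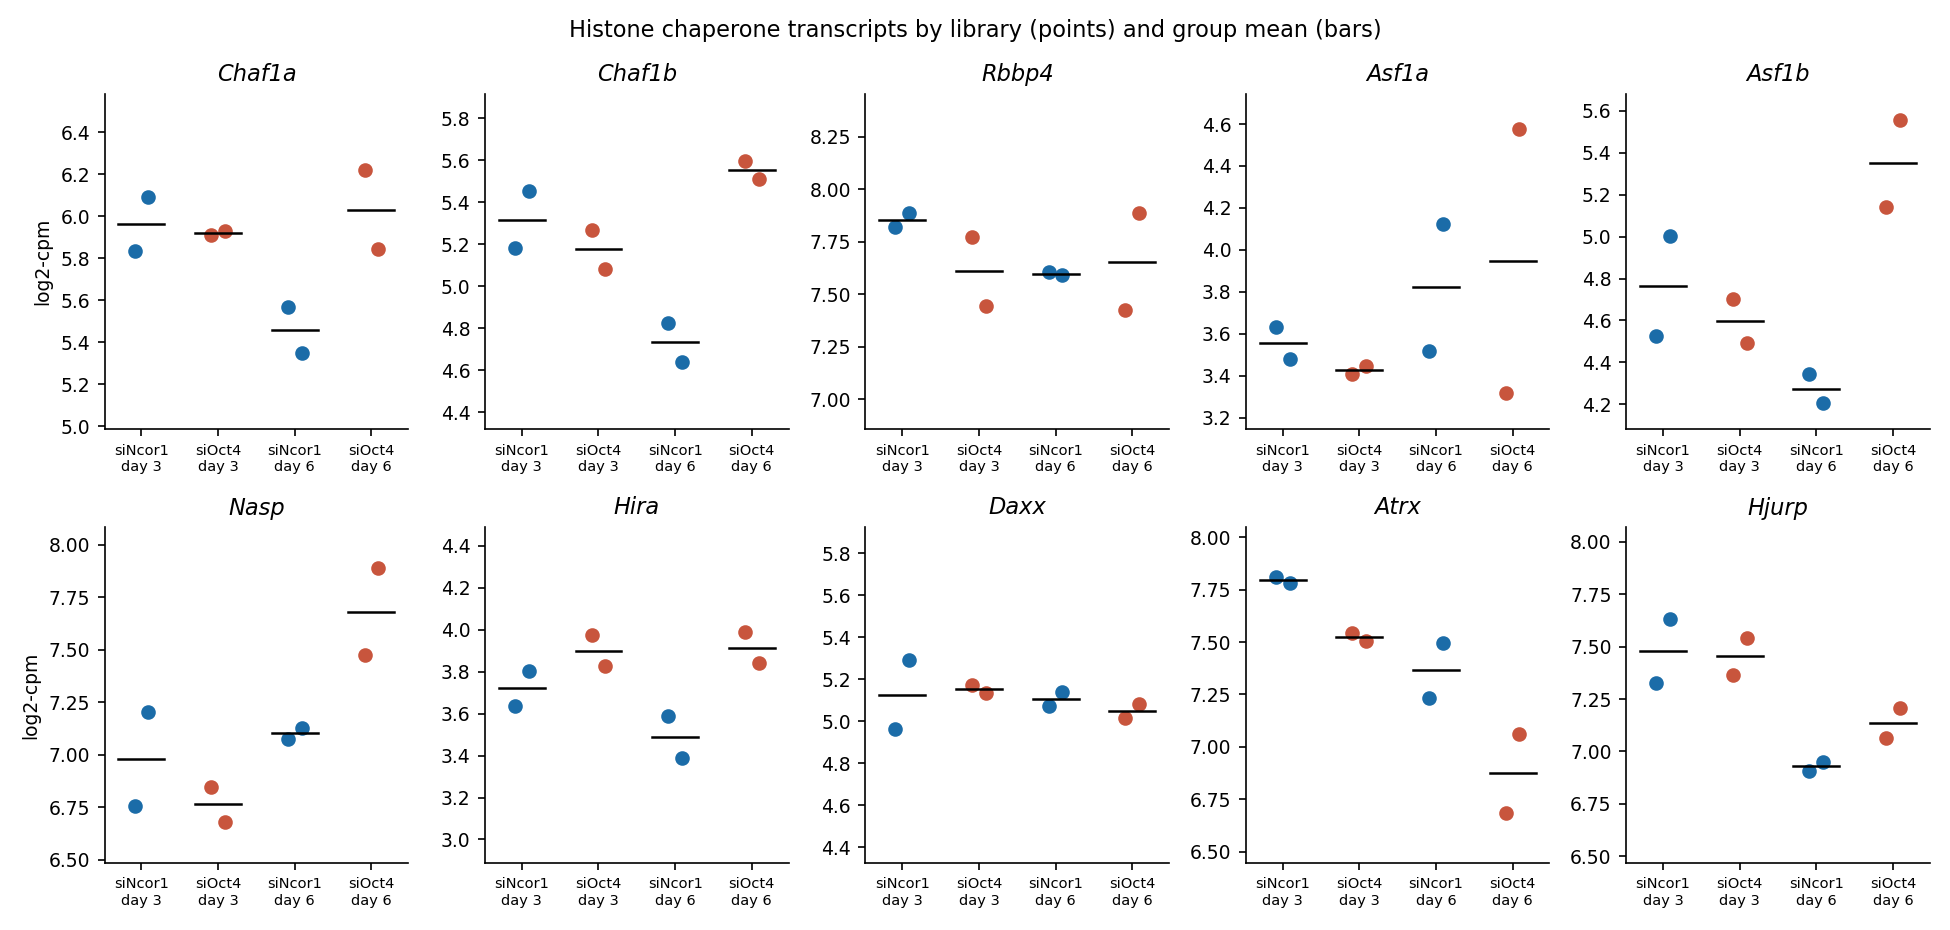
Log2-cpm of the 10 histone chaperone genes, with 1 point per library, the group mean as a bar, *siNcor1* in blue and *siOct4* in red; every panel has the same span in log2 units, placed at the level of its gene. At day 6 both *siOct4* points of *Chaf1b* and *Asf1b* sit well above both *siNcor1* points, those of *Atrx* sit below them, and *Daxx* stays between 31.0 and 39.0 CPM.

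At day 6 5 of the 10 members were called. *Chaf1a*, *Chaf1b*, *Asf1b* and *Nasp* had 1.49 to 2.11 times the *siNcor1* level in the libraries labelled *siOct4*, *Atrx* was lower, and the remaining 5 members were not called. That is 4 of 10 members higher and 1 of 10 lower, against 12.1% of all tested genes called higher and 18.6% called lower. Of all genes called at day 6, 39.5% were higher, and 27.5% with library totals used without normalization factors. The median log2 difference of the members was 0.32, against −0.03 over all tested genes.

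Of the CAF-1 subunits, *Chaf1b* had the largest difference. In CPM, replicate 1 and then replicate 2 of each group, it stood at 28.3 and 24.8 in *siNcor1* day 6 and at 48.3 and 45.5 in *siOct4* day 6. Both libraries labelled *siOct4* were above both others, and they were also above all 4 day 3 libraries, which ran from 33.8 to 43.7 CPM. The log2 difference was 0.82 (SE 0.14, limma adjusted p = 0.00197), a 1.77-fold higher level. *Chaf1a*, the large subunit, stood at 47.3 and 40.7 CPM in *siNcor1* day 6 and at 74.4 and 57.3 CPM in *siOct4* day 6. Its groups did not overlap either, although the libraries labelled *siOct4* were far from each other, and the log2 difference was 0.57 (SE 0.15, limma adjusted p = 0.0155). *Rbbp4*, the shared subunit, did not follow them. It stood at 194 and 193 CPM in *siNcor1* day 6 and at 172 and 236 CPM in *siOct4* day 6, so that the latter enclosed the former, with a log2 difference of 0.06 (95% interval −0.29 to 0.40, limma adjusted p = 0.810) that turned to −0.03 with library totals without normalization factors. *Rbbp7*, the close relative of *Rbbp4*, gave a log2 difference of −0.33 (limma adjusted p = 0.177).

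Among the carriers of H3 and H4, *Asf1b* had the largest difference of the 10 members. It stood at 20.2 and 18.3 CPM in *siNcor1* day 6 and at 35.2 and 46.9 CPM in *siOct4* day 6, with no overlap. The log2 difference was 1.08 (SE 0.19, limma adjusted p = 0.00201), a 2.11-fold higher level. Its paralog *Asf1a* stood at 11.3 and 17.3 CPM in *siNcor1* day 6 and at 9.83 and 23.7 CPM in *siOct4* day 6. Replicates of *Asf1a* were thus further apart than the group means, and the log2 difference of 0.12 had a 95% interval from −0.59 to 0.84 (limma adjusted p = 0.802), which does not show that it stayed level. Without *siOct4* day 6 replicate 1 the difference of *Asf1a* was 0.75 (adjusted p = 0.0291), and without *siOct4* day 6 replicate 2 it was −0.50. *Nasp*, which guards the soluble pool of H3 and H4, stood at 135 and 140 CPM in *siNcor1* day 6 and at 178 and 237 CPM in *siOct4* day 6, with a log2 difference of 0.58 (SE 0.17, limma adjusted p = 0.0228).

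Of the 4 chaperones that work outside replication, *Atrx* alone was called. *Atrx*, the remodeller that partners DAXX, stood at 150 and 180 CPM in *siNcor1* day 6 and at 103 and 134 CPM in *siOct4* day 6. The groups did not overlap, and the log2 difference was −0.49 (SE 0.14, limma adjusted p = 0.0230). *Daxx*, the chaperone of that pair, stayed between 31.0 and 39.0 CPM in all 8 libraries, and its day 6 log2 difference was −0.06 with a 95% interval from −0.36 to 0.25 (limma adjusted p = 0.786). *Hira* stood at 11.9 and 10.3 CPM in *siNcor1* day 6 and at 15.7 and 14.2 CPM in *siOct4* day 6. Its groups did not overlap, and its log2 difference of 0.43 missed the threshold (limma adjusted p = 0.0698), which it passed with libraries centred on their medians (0.47, adjusted p = 0.0495) and with quantile normalization (0.53, adjusted p = 0.0279). *Hjurp*, the CENP-A chaperone, stood at 120 and 124 CPM against 134 and 148 CPM, with a log2 difference of 0.21 (95% interval −0.08 to 0.50, limma adjusted p = 0.259).

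*Chaf1b* and *Asf1b* were called at day 6 under all 12 alternative settings and with each of the 8 libraries left out in turn, while the calls of *Chaf1a*, *Nasp* and *Atrx* were lost with some libraries left out. Without *siNcor1* day 6 replicate 2 only 2 of the 10 members were called, and *Chaf1a* (0.46, adjusted p = 0.147), *Nasp* (0.61, adjusted p = 0.101) and *Atrx* (−0.36, adjusted p = 0.220) were not. Without *siOct4* day 6 replicate 1 *Chaf1a* fell to 0.38 (adjusted p = 0.0718) and *Atrx* came to −0.30 (adjusted p = 0.113). *Nasp* was at 0.55 without *siNcor1* day 6 replicate 1 (adjusted p = 0.101) and at 0.37 without *siOct4* day 6 replicate 2 (adjusted p = 0.103). All 3 calls were lost with no intensity trend (adjusted p = 0.0543, 0.0772 and 0.0718 for *Chaf1a*, *Nasp* and *Atrx*), that of *Nasp* with totals without normalization factors (0.49, adjusted p = 0.0568) and that of *Atrx* with only the groups compared (adjusted p = 0.0681). The *siOct4* day 6 pair was also the least alike of the 4 pairs, with a chi-square per degree of freedom of 21.3 over genes against 9.48 to 10.6 in the other groups.

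**Figure D2:**
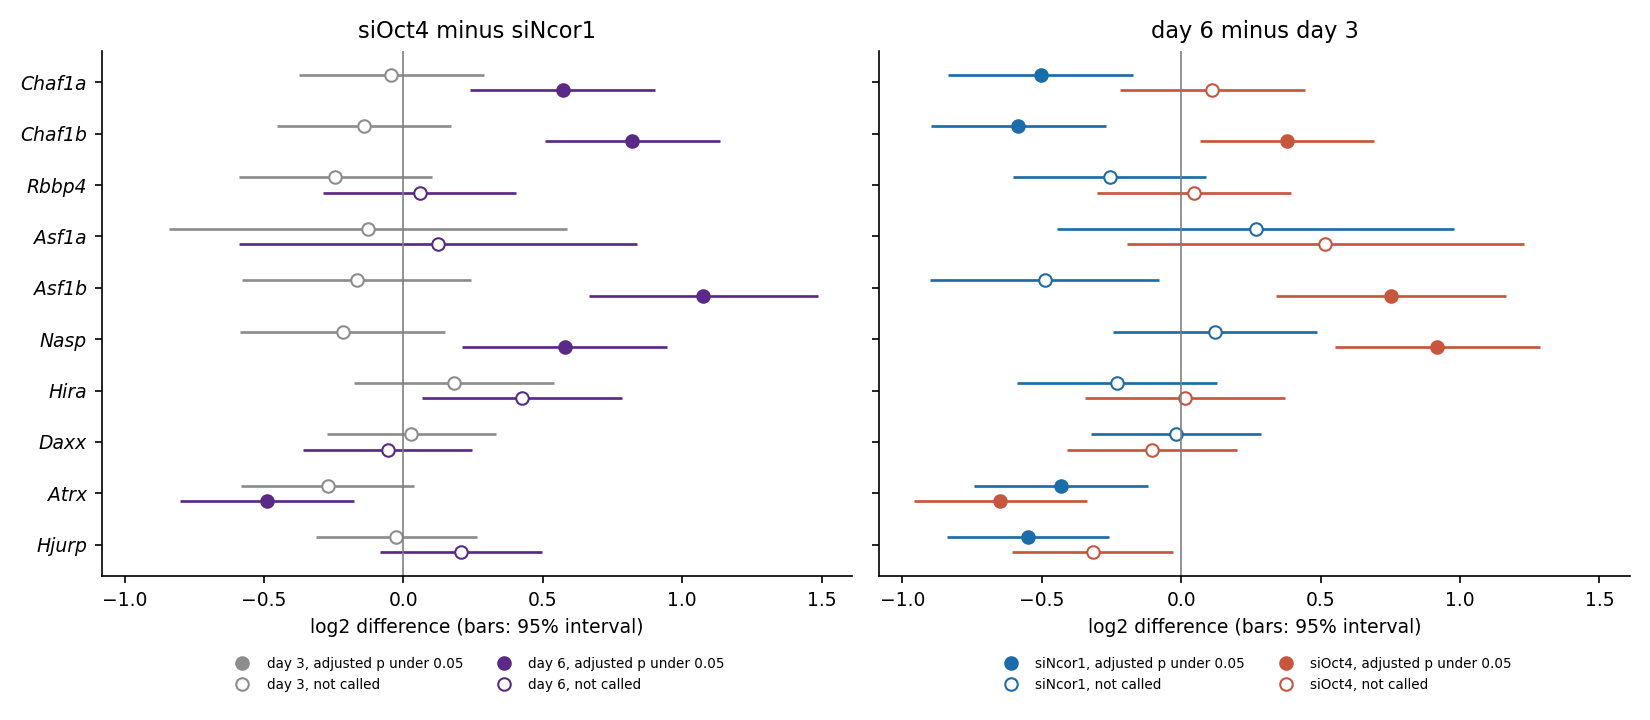
Log2 differences of the 10 members with 95% intervals from limma, *siOct4* minus *siNcor1* on the left (day 3 grey, day 6 purple) and day 6 minus day 3 on the right (*siNcor1* blue, *siOct4* red); filled points passed an adjusted p of 0.05. All day 3 points are open, and *Chaf1b* has filled points on both sides of 0 in the right panel, at −0.58 and 0.38.

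The comparisons of day 6 with day 3 asked how each chaperone moved during reprogramming under each siRNA. In the libraries labelled *siNcor1*, 4 of the 10 members fell and 0 rose, where 13.8% of all tested genes were called higher and 20.9% were called lower at day 6. *Chaf1b* fell by 0.58 on the log2 scale (SE 0.14, limma adjusted p = 0.00846), from 36.1 and 43.7 CPM to 28.3 and 24.8 CPM. *Hjurp* fell by 0.55 (SE 0.13, limma adjusted p = 0.00775), from 160 and 198 CPM to 120 and 124 CPM. *Chaf1a* fell by 0.50 (limma adjusted p = 0.0233) from 57.0 and 68.1 CPM, and *Atrx* fell by 0.43 (limma adjusted p = 0.0348) from 224 and 220 CPM. In each of these 4 genes both day 6 libraries were below both day 3 libraries. The 4 were named because they were called, so this adds no support, and the share of all tested genes without overlap was not counted. With libraries left out in turn, the log2 difference of *Atrx* ran from −0.56 to −0.30, and it was not called in most of these fits. *Asf1b* had a log2 difference of −0.49 that missed the threshold (limma adjusted p = 0.0625). It passed with only the groups compared (adjusted p = 0.0240), without *siNcor1* day 3 replicate 1 (−0.73, adjusted p = 0.0329) and without either *siOct4* day 6 library (adjusted p = 0.0252 and 0.0260), and it was at −0.25 without *siNcor1* day 3 replicate 2. *Nasp* had a difference of 0.12 (limma adjusted p = 0.611). The median over the members was −0.34, against −0.07 over all tested genes. The 4 calls went to 0 without *siNcor1* day 3 replicate 2, and to 2 without *siNcor1* day 6 replicate 1 or without *siNcor1* day 6 replicate 2.

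In the libraries labelled *siOct4*, 3 of the 10 members rose and 1 fell from day 3 to day 6, where 22.2% of all tested genes were called higher and 30.5% were called lower. Of all genes called in this comparison 42.1% were higher, and 52.5% with library totals taken without *Gm26917*. *Nasp* rose by 0.92 on the log2 scale (SE 0.17, limma adjusted p = 7.6e-04), from 115 and 103 CPM to 178 and 237 CPM. *Asf1b* rose by 0.75 (SE 0.19, limma adjusted p = 0.00545), from 25.9 and 22.4 CPM to 35.2 and 46.9 CPM, and *Chaf1b* rose by 0.38 (SE 0.14, limma adjusted p = 0.0425), from 38.4 and 33.8 CPM. *Atrx* fell by 0.65 (SE 0.14, limma adjusted p = 0.00245), from 186 and 181 CPM to 103 and 134 CPM. The libraries of the days did not overlap in any of these 4 genes. These 4 were picked as called genes, so this adds no support to the calls. *Chaf1a* was at 0.11 with a 95% interval from −0.22 to 0.44 (limma adjusted p = 0.564), and *Hjurp* at −0.32 (limma adjusted p = 0.0624), which passed with totals without normalization factors (−0.38, adjusted p = 0.0464) and without *siOct4* day 6 replicate 2 (−0.39, adjusted p = 0.0408). *Asf1a* was at 0.52 (limma adjusted p = 0.203) and, without *siOct4* day 6 replicate 1, at 1.15 (adjusted p = 0.00139). The median over the members was 0.08, against −0.08 over all tested genes. Without *siOct4* day 3 replicate 2, the shallowest library, 2 members were called, and *Asf1b* (0.65, adjusted p = 0.0525) and *Chaf1b* (0.29, adjusted p = 0.239) were not. The call of *Chaf1b* was also lost without *siOct4* day 3 replicate 1 (adjusted p = 0.0590), without *siOct4* day 6 replicate 1 (0.34, adjusted p = 0.106) and without either library of *siNcor1* day 6 (adjusted p = 0.0573 and 0.0568), and with totals without normalization factors, with no intensity trend or with only the groups compared (adjusted p = 0.0832, 0.0769 and 0.0691).

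Whether the difference between the siRNAs itself changed from day 3 to day 6 was tested as an interaction. It passed for 3 of the 10 members, all with a positive sign, where 7.77% of all tested genes were called with a positive and 12.9% with a negative sign. These were *Asf1b*, at 1.24 on the log2 scale (SE 0.27, limma adjusted p = 0.00835), *Chaf1b*, at 0.96 (SE 0.20, limma adjusted p = 0.00767), and *Nasp*, at 0.80 (SE 0.24, limma adjusted p = 0.0351). *Chaf1a* stood at 0.61 (limma adjusted p = 0.0626), and passed with quantile normalization (0.70, adjusted p = 0.0455), with totals without *Gm26917* (0.68, adjusted p = 0.0467) and without *siOct4* day 6 replicate 2 (0.80, adjusted p = 0.00943). *Atrx*, called lower at day 6 under both siRNAs though less firmly in *siNcor1*, had an interaction of −0.22 (95% interval −0.66 to 0.22, limma adjusted p = 0.470). A different fall was therefore not shown. Without *siNcor1* day 3 replicate 2, 0 members were called, with *Chaf1b* at 0.83 (adjusted p = 0.0515), *Asf1b* at 1.00 (adjusted p = 0.0554) and *Nasp* at 0.57 (adjusted p = 0.169). *Nasp* was lost as well without either *siOct4* day 3 library, without either *siNcor1* day 6 library and without *siOct4* day 6 replicate 2 (0.59 to 0.88). Its call was also lost with no intensity trend (limma adjusted p = 0.1045) and with library totals without normalization factors (0.74, limma adjusted p = 0.0591).

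Levels of different genes can be compared only per length. In CPM per kb of the principal transcript, as medians over the 8 libraries, *Nasp* (64.8) was followed by *Rbbp4* (46.9), *Hjurp* (31.5), *Chaf1b* (19.4), *Atrx* (17.6), *Asf1b* (13.6), *Daxx* (12.8), *Chaf1a* (10.6), *Asf1a* (5.07) and *Hira* (3.30). *Asf1a* and *Hira* were the neighbours in this order whose ranges over the libraries did not overlap, and the other neighbours overlapped, although *Rbbp4* was above *Hjurp* and *Hjurp* above *Chaf1b* within each of the 8 libraries. *Chaf1b* was above *Atrx* in 5 of 8 libraries. The order depends on the transcript: per kb of all exonic bases it ran *Rbbp4*, *Hjurp*, *Nasp*, *Daxx*, *Asf1b*, *Atrx*, *Chaf1b*, *Chaf1a*, *Asf1a* and *Hira*. Within CAF-1, the per-kb level of *Chaf1a* was 0.437 to 0.626 times that of *Chaf1b* by principal transcript and 0.666 to 0.952 times by all exonic bases. *Asf1a* was below *Asf1b* in every library, at a per-kb ratio of 0.227 to 0.768 by principal transcript and of 0.179 to 0.607 by all exonic bases. *Chaf1a*, *Asf1a* and *Hira* share much of their exonic sequence with a neighbour, as given below, so reads may have been dropped or added there. The effect of this on the levels and ratios was not tested.

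**Figure D3:**
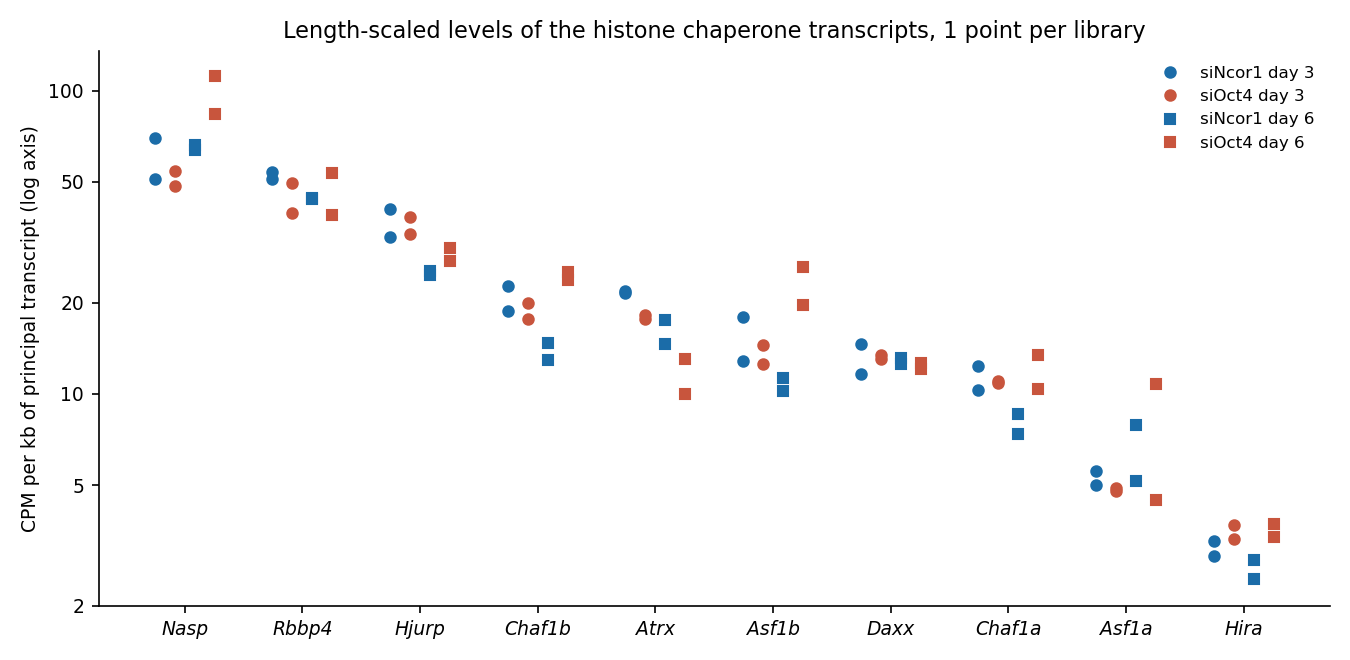
CPM per kb of the principal transcript on a log axis, with 1 point per library; circles are day 3, squares are day 6, *siNcor1* is blue and *siOct4* is red. Genes run from the highest median (*Nasp*, 64.8) to the lowest (*Hira*, 3.30), and the *siOct4* squares lead in *Nasp*, *Chaf1b* and *Asf1b* and trail in *Atrx*.

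The pattern of *Chaf1a* over the 8 libraries, as the root mean square difference of log2 values centred on each gene's mean, was closest to those of *Vars* (0.06), *Atl1* (0.06) and *Bcorl1* (0.06). For *Chaf1b* the closest were *E130309D02Rik* (0.05), *Mcm7* (0.06) and *Kif18b* (0.06). *Mcm7* encodes a subunit of the replicative helicase and *Kif18b* a mitotic kinesin. *Chaf1b* ranked 202 among 13865 genes in likeness to *Chaf1a*, and *Chaf1a* ranked 95 in likeness to *Chaf1b*. Among the members *Hira*, at rank 157, was closer to *Chaf1a* than *Chaf1b* was, while *Chaf1a* was the closest to *Chaf1b*.

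Other chaperones and the histones they carry gave a context for the members. Of 30 other histone chaperones and assembly partners, 4 were higher and 1 was lower at day 6 under the label *siOct4* (12.1% and 18.6% of all tested genes), so that the higher share was near that of all genes, and the median log2 difference was 0.22 against −0.03 over all tested genes. *Npm3*, a nucleoplasmin-type chaperone, was at 0.84 (SE 0.15, limma adjusted p = 0.00216) and *Mis18a*, which readies the centromere for CENP-A, at 0.68 (SE 0.15, limma adjusted p = 0.00560). *Supt6*, an elongation factor that binds histones, was at −0.36 (limma adjusted p = 0.0364). The other 2 that were called, named after their values were seen, were *Set* and *Anp32e*, at 0.43 and 0.44. Of 9 replacement histone variants 3 were higher and 0 lower, namely *H2afx* (0.89, limma adjusted p = 0.0295), *H1f0* (0.60, limma adjusted p = 0.00913) and *Cenpa* (0.53, named after its value was seen), the cargo of HJURP.

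Genes of the cell cycle were examined because CAF-1 works at the replication fork. Of 20 S phase genes 14 were higher and 0 lower at day 6 under the label *siOct4* (12.1% and 18.6% of all tested genes). Their median log2 difference was 0.66. They were led by *Ccne2*, a cyclin of S phase entry, at 0.91 (SE 0.24, limma adjusted p = 0.0136), and *Gins1*, a part of the replicative helicase, at 0.78 (SE 0.20, limma adjusted p = 0.0138). Of 10 mitosis genes 4 were higher and 0 lower, against the same shares of all tested genes, with a median of 0.47. The mitosis genes were led by *Cdc20*, an activator of the anaphase-promoting complex, at 0.75 (limma adjusted p = 0.00149), and *Aurka*, a mitotic kinase, at 0.66 (limma adjusted p = 0.00735). Without *siNcor1* day 6 replicate 2 the higher calls at day 6 went from 14 to 3 in the S phase genes, from 4 to 1 in the mitosis genes, from 4 to 1 in the partners and from 3 to 0 in the variants, and the S phase calls also went to 9 without *siNcor1* day 6 replicate 1 and to 8 without *siOct4* day 6 replicate 2. The lower call of *Supt6* was lost without any 1 of 5 libraries, both of *siNcor1* at either day and *siOct4* day 6 replicate 1. At day 3 none of the 30 partners, 9 variants, 20 S phase genes or 10 mitosis genes was called. This is near the day 3 shares of all tested genes, 0.375% called higher and 0.692% called lower, and does not show that the lists were level. Between the days, 7 mitosis genes fell and 0 rose under *siNcor1* (20.9% and 13.8% of all tested genes), with a median of −0.78. Under *siOct4* 3 mitosis genes fell and 1 rose (30.5% and 22.2% of all tested genes). Their interaction was positive in 4 and negative in 0 (7.77% and 12.9% of all tested genes). The 4 went to 0 with no intensity trend and to 2 with library totals without normalization factors. Fewer were also called with *siNcor1* day 3 replicate 2, *siOct4* day 3 replicate 2 or *siNcor1* day 6 replicate 2 left out in turn. From day 3 to day 6, 8 S phase genes fell and 0 rose under *siNcor1* (20.9% and 13.8% of all tested genes), and the 8 went to 3 without *siNcor1* day 3 replicate 2 and to 5 without *siNcor1* day 6 replicate 2. Under *siOct4* 10 rose and 2 fell (22.2% and 30.5% of all tested genes), and the 10 went to 6 without *siOct4* day 3 replicate 2. The interaction was called with a positive sign in 8 S phase genes and with a negative sign in 0 (7.77% and 12.9% of all tested genes), and the 8 went to between 1 and 4 without any 1 of 6 libraries, the exceptions being *siNcor1* day 3 replicate 1 and *siOct4* day 6 replicate 1. Of the 30 partners 13 fell and 2 rose under *siNcor1* (20.9% and 13.8% of all tested genes). Fewer of the 30 were called lower there without *siNcor1* day 3 replicate 2 or without *siNcor1* day 6 replicate 2. Under *siOct4* 10 of the 30 fell and 7 rose, near the shares of all tested genes (30.5% and 22.2%).

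**Figure D4:**
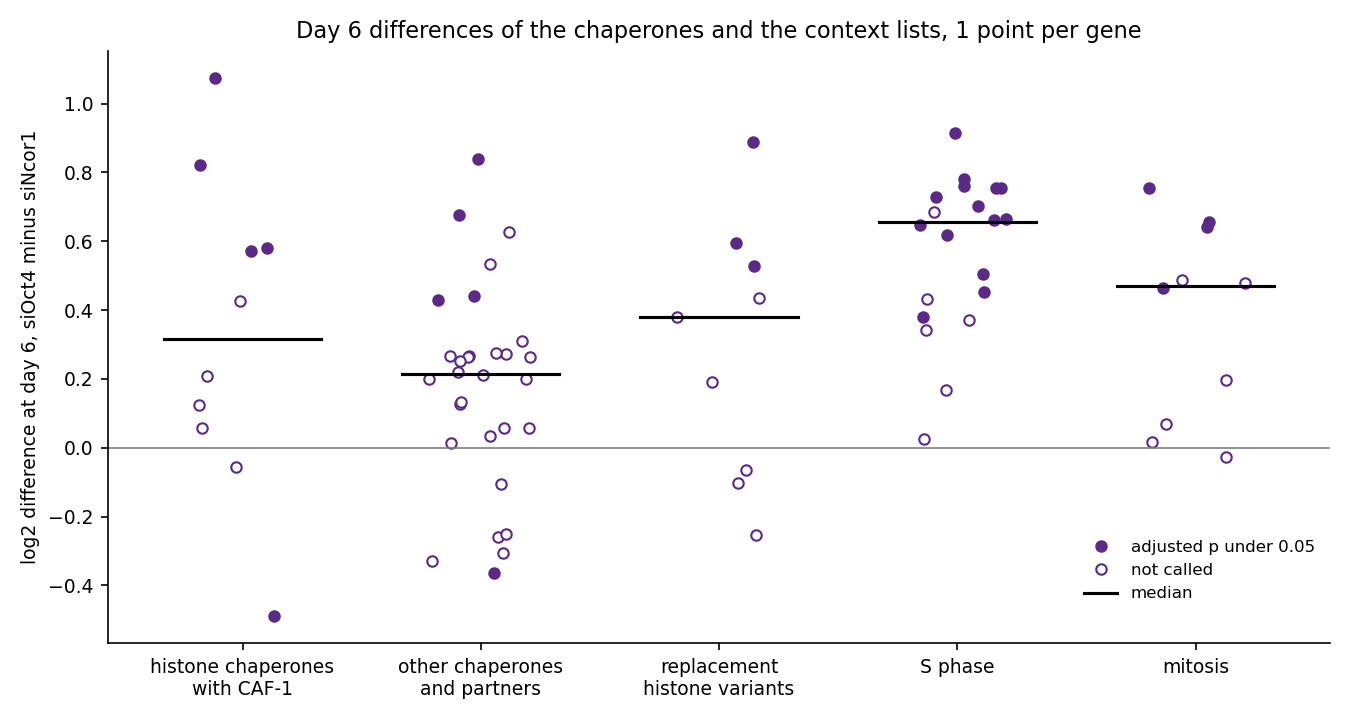
Log2 difference at day 6, *siOct4* minus *siNcor1*, with 1 point per gene for the 10 members, 30 other chaperones and partners, 9 replacement histone variants, 20 S phase genes and 10 mitosis genes; filled points passed a limma adjusted p of 0.05 and bars are medians. The S phase genes have the highest median (0.66), and *Asf1b* at 1.08 and *Atrx* at −0.49 are the extremes of all points shown.

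Fibroblast markers differed between the same groups. The summed level of the 10 markers was 7231 to 7375 CPM in *siNcor1* day 3, 9771 to 11530 CPM in *siOct4* day 3, 4896 to 5285 CPM in *siNcor1* day 6 and 2695 to 2822 CPM in *siOct4* day 6. At day 6, 9 of 10 were called lower in the libraries labelled *siOct4*, against 18.6% of all tested genes. Of the neural markers, *Tubb3* was higher at day 6 under the label *siOct4* (1.71, limma adjusted p = 9.3e-05), while *Sox10* was at −0.82 (limma adjusted p = 0.230). Their sum was 26.8 to 31.6 CPM in *siNcor1* day 6 and 85.1 to 100.5 CPM in *siOct4* day 6. In the same order, keratinocyte markers summed to 6.36 to 9.08 and 1.90 to 2.29 CPM, endothelial markers to 16.4 to 20.9 and 16.7 CPM, and the muscle marker *Des* was at 20.3 to 24.0 and 13.9 to 17.8 CPM. Haematopoietic markers summed to 4.52 to 10.1 CPM over all libraries. The part of these cell type differences in the chaperone results was not tested, and in bulk RNA more cells of a type and more RNA per cell cannot be told apart.

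Some members share sequence with a neighbour, and the strand used in counting is not given in the sources used here. *Chaf1a* shares 52.5% of its exonic bases with *Ubxn6* on the opposite strand. *Ubxn6* had a log2 difference of −0.03 at day 6 between the siRNAs (limma adjusted p = 0.860) and rose by 0.44 from day 3 to day 6 in *siNcor1* (limma adjusted p = 0.0173), where *Chaf1a* fell. *Ubxn6* also rose in *siOct4*, by 0.34 (limma adjusted p = 0.0368), where *Chaf1a* was at 0.11. *Asf1a* shares 48.1% of its exonic bases with *Mcm9* on the opposite strand, and *Mcm9* had a log2 difference of −0.21 at day 6 (limma adjusted p = 0.442) and fell by 0.52 from day 3 to day 6 in *siOct4* (limma adjusted p = 0.0393), where *Asf1a* was at 0.52. *Hira* shares 44.7% of its exonic bases with the same-strand model *Gm28539*, which was not among the genes of the table, so reads could have been split or dropped there. *Rbbp4* shares 9.10% with *Gm26722* and 8.94% with *Sync*, both on the opposite strand. *Asf1b* and *Daxx* shared no 43-base stretch of exon with another gene, 43 bases being the read length.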

How the data were processed

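RNA-seq was measured in 8 libraries, with 200 ng of total RNA per library, ribosomal RNA depletion and paired reads of 43 bp. The authors aligned reads to mm10 with STAR 2.5.2b and deposited log2-cpm values, made with edgeR 3.20.9 per the labels; the tool that counted reads on genes and its strand setting are not given in the sources used here. Removing the constant in those values gave whole reads for 100% of the values checked (within 0.1 read). Values of high read count were left out of this check and were rounded. By identifier, 18969 of 18990 genes matched GENCODE M21.

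The 13866 genes averaging 1 CPM or more were tested on the log2 scale as deposited, with limma 3.58.1 (R 4.3.3), the 4 groups in 1 fit and eBayes with an intensity trend. P-values were Benjamini-Hochberg adjusted over all tested genes, with calls at 0.05, and the script was tested on simulated data. Means rest on 2 libraries. The p-values rest on the spread within groups, pooled over the 4 groups and drawn toward that of genes of similar level. They do not measure the spread of the 2 libraries of a group alone. Alternatives were other scalings, filters and pseudocounts, no trend, voom, fits with the replicate block or restricted to the groups compared, and each library left out in turn; where that left a group with 1 library, it was taken to vary like the others.

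The members and gene lists were chosen with earlier results of these data known. All members are named; of each list, up to 2 called genes at either end of the day 6 differences, and the 3 nearest genes of each of *Chaf1a* and *Chaf1b*, are named. Figures were drawn with matplotlib 3.10.9.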

Additional observations from a re-analysis of the deposited data

Results flagged for a closer look

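For 3 members the difference between the libraries labelled *siOct4* and *siNcor1* was not the same at day 3 and at day 6 by the interaction test itself (limma, adjusted over all tested genes). The change was 0.96 on the log2 scale for *Chaf1b* (adjusted p = 0.00767), 1.24 for *Asf1b* (adjusted p = 0.00835) and 0.80 for *Nasp* (adjusted p = 0.0351). In all 3 the difference was negative at day 3, at −0.14, −0.17 and −0.22, where it was not called, and positive at day 6. Each call was lost without *siNcor1* day 3 replicate 2, the library with the highest day 3 level of each of these genes (0.83, 1.00 and 0.57). The call of *Nasp* was weaker than the others. It was also lost with no intensity trend (limma adjusted p = 0.1045) and with library totals without normalization factors (0.74, limma adjusted p = 0.0591). The same held without either *siOct4* day 3 library, either *siNcor1* day 6 library or *siOct4* day 6 replicate 2.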

How the results depend on the processing

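Under 12 alternative settings the members' results kept their direction and side of the threshold in 556 of 590 cases; 16 lost a call, 7 gained one and 11 changed sign, and with libraries left out 338 of 400 kept both, 32 lost a call, 8 gained one and 22 changed sign. A left-out library outside the 2 groups compared cannot change a log2 difference. Nor can the settings with no trend, other filters, the replicate block or only the groups compared. Many of these cases therefore could not change direction. With no intensity trend in the fit, 2 members were called at day 6 and 2 between the days in *siNcor1*. Quantile normalization and library totals without *Gm26917* also gave 2 between the days in *siNcor1*. *Chaf1a* and *Atrx* lost their *siNcor1* call in each of these settings (limma adjusted p = 0.0527 to 0.124). The day 6 calls of higher level in the lists went from 4 to 2 (partners), 14 to 9 (S phase) and 4 to 2 (mitosis) with no intensity trend, and from 4 to 2 in the partners with library totals without normalization factors or with only the groups compared; the 8 S phase interactions went to 3 with no trend, and to 4 with those totals or with no filter. With quantile normalization the falls among partners went from 13 to 8 in *siNcor1* and from 10 to 6 in *siOct4*. Leaving out libraries gave 2 to 5 calls at day 6, 0 to 5 between the days in *siNcor1*, 2 to 5 in *siOct4* and 0 to 4 for the interaction. The numbers of the replicates were not shown to pair libraries: deviations of same-numbered libraries correlated at −0.0395 to 0.281. With the replicate block the calls were 0 at day 3, 5 at day 6, 4 and 5 between the days in *siNcor1* and *siOct4*, and 3 for the interaction; the block added *Hjurp* between the days in *siOct4* (−0.32, limma adjusted p = 0.0315) and changed no other member's call.

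Sign changes were in differences that were not called, and their cause was not tested. With library totals without normalization factors these were *Daxx* at day 3 (−0.00444), *Rbbp4* at day 6 (−0.0296) and, between the days in *siOct4*, *Rbbp4* (−0.0142) and *Hira* (−0.0455; −0.00561 with voom). *Daxx* reached −0.0134 at day 3 without *Gm26917* in the totals; between the days it reached 0.0222, 0.0609 and 0.0568 in *siNcor1* with median centring, quantile normalization and totals without *Gm26917*, and 0.0254 and 0.0313 in *siOct4* with the latter 2. *Ncor1* at day 6 was 0.00615 with quantile normalization. With libraries left out, values at day 3 ran from −0.17 to 0.0851 (*Chaf1a*), −0.41 to 0.0726 (*Asf1b*), −0.44 to 0.00514 (*Nasp*), −0.14 to 0.19 (*Daxx*) and −0.18 to 0.13 (*Hjurp*), and at day 6 from −0.17 to 0.29 (*Rbbp4*), −0.50 to 0.75 (*Asf1a*) and −0.14 to 0.0542 (*Ncor1*). Between the days in *siNcor1* they ran from −0.0375 to 0.57 (*Asf1a*), −0.10 to 0.34 (*Nasp*) and −0.18 to 0.15 (*Daxx*), and in *siOct4* from −0.0771 to 0.30 (*Chaf1a*), −0.18 to 0.28 (*Rbbp4*), −0.11 to 1.15 (*Asf1a*) and −0.0612 to 0.0890 (*Hira*). Interactions ran from −0.38 to 0.88 (*Asf1a*) and −0.25 to 0.0796 (*Daxx*). Totals without *Gm26917* moved the median of all genes by 0.13 between the days in *siOct4*.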
